A study of Mus musculus with 4 samples.

Results

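Serpins are a family of proteins that mostly inhibit serine proteases, and 52 Serpin genes were measured among 22180 genes in the synovium of mice with serum transfer arthritis and of nonarthritic mice. The 52 are every gene whose symbol starts with Serpin, apart from Serpinh1, a collagen chaperone, and pseudogenes, with 1 probe set a gene, the one with the highest mean over the 4 arrays. A reference table (RefSeq, assembly GRCm38.p6) lists 62 protein-coding genes under the same rule, and the other 10 were not analysed here. Clade E in particular was represented by Serpine3 alone. Each array carried RNA of 1 pool of mice. The arthritic group was 2 pools of synovium, each from 10 mice, taken on day 10, the labelled peak of inflammation, after serum that provokes arthritis had been injected into the abdomen, 150 microlitres on each of days 0, 2 and 7. The nonarthritic group was 2 pools, each from 3 mice, labelled day 0, given sterile saline by the protocol, although their labels also list K/BxN as serum source. All mice were male C57BL/6J animals aged 12 weeks, with no engineered allele named, and the tissue came from around the ankle (tibiotalar) joint. Pool size and labelled day differ between the groups on every array and cannot be told apart from arthritis. The comparison asks which Serpin genes differ between inflamed and nonarthritic synovium, clade by clade.

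A serpin acts as bait: the target protease cuts an exposed loop of the inhibitor, the loop springs into the body of the protein, and the protease is dragged along and stays locked in a covalent complex. Clades are named by letter. Clade A holds mostly secreted plasma proteins of the liver, clade B holds inhibitors that lack a classical signal peptide and work largely inside cells, and the smaller clades hold regulators of clotting, fibrinolysis, complement and blood vessel growth. In joints, serpins are studied as a brake on the proteases that neutrophils, mast cells and fibroblasts release.

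The tissue was checked against markers of 14 cell types. Of 12 synovial fibroblast markers 6 rose and 2 fell, with summed linear signals of 80357 and 78313 in arthritic and 76071 and 69806 in nonarthritic pools. Skeletal muscle markers fell in 11 of 12 cases, with sums of 5833 and 4142 in arthritic against 30394 and 41865 in nonarthritic pools. Of 8 platelet markers 1 fell, Pf4 (-0.55). Array medians were 6.96 and 7.05 in arthritic and 7.05 and 7.15 in nonarthritic pools. The part of these tissues in the falls described here was not tested.

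In arthritic synovium 0 of the 52 genes rose and 3 fell, Serpinb7, Serpinb8 and Serpina1e, by limma's moderated test at an adjusted p under 0.05. Across all 22180 genes 15.3% were called, 8.72% higher and 6.62% lower in arthritic synovium. Rises were 56.8% of those calls, and 67.1% with each array centred on its median, where the Serpin counts stayed at 0 and 3. Without arthritic pool 1, arthritic pool 2, nonarthritic pool 1 or nonarthritic pool 2 that share was 35.7%, 30.9%, 52.2% and 40.8%, so the leading direction over all genes depends on the pool left out. The called members were 5.77% of the family. At an unadjusted p under 0.05, 1 member was higher, Serpinb6b, and 6 were lower. The median log2 fold change, arthritic minus nonarthritic, was -0.10 for the family and 0.005 for all genes, and its median size without regard to sign was 0.17 against 0.24. Many Serpin genes were dim, at a level that itself differed between the groups, as given below. Some genes were above the level of olfactory receptor genes in at least 1 group, as described below. Of these, 2 of 14 Serpin genes and 22.1% of 14551 genes were called, with median sizes of 0.29 and 0.31. A gene can pass this filter through its higher group alone, so these shares and sizes only describe the genes kept. Serpina1e, called as lower, passed through the nonarthritic group alone, and Serpina11, Serpinb1c and Serpinb9b through the arthritic group alone. Signals below are on the log2 scale, errors of means are SD over 2 pools and errors of fold changes are SE from limma.

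**Figure D1:**
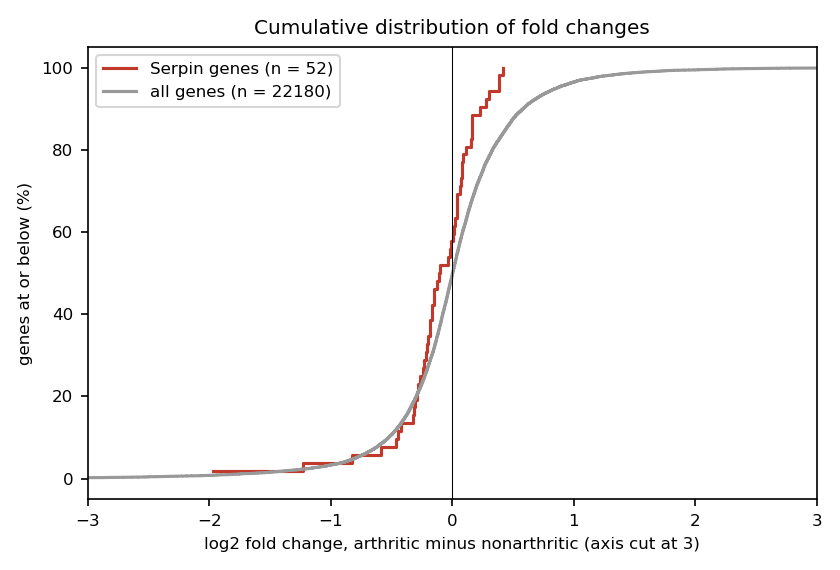
Cumulative share of genes (percent, vertical axis) at or below each log2 fold change, arthritic minus nonarthritic (horizontal axis, drawn between -3 and 3, so genes beyond are off the axis), for the 52 Serpin genes in red and all 22180 genes in grey. The Serpin line ends at 0.42, while all genes reach up to 4.09, and its low tail is made of 3 called genes between -0.83 and -1.97.

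Most members gave a dim signal. For 38 of the 52 the mean in both groups lay at or below the 95th percentile of 1105 olfactory receptor genes, which joint tissue is not known to use, that is 6.83 in arthritic and 7.08 in nonarthritic synovium. No detection calls were used, so signal at that level was not shown to be above background, and the size of a difference there is uncertain even where it passes the test. The 14 others were 4 clade A genes, 7 clade B genes, Serpinf1, Serpinf2 and Serping1. The dim members shared a shift between arrays of 1 group: arthritic pool 2 exceeded arthritic pool 1 in 28 of 38 (median 0.15), and nonarthritic pool 2 exceeded nonarthritic pool 1 in 30 of 38 (median 0.17). Olfactory receptor genes had the same direction, with medians of 0.06 for the arthritic and 0.37 for the nonarthritic pools. Among the 14 other members these medians were 0.02 and 0.01. Between the groups, olfactory receptor genes had a median signal of 4.6 and 4.68 in arthritic pools 1 and 2. In nonarthritic pools 1 and 2 it was 4.68 and 5.15, so the dim level was highest in nonarthritic pool 2. The part of this difference in the negative median log2 fold changes of the family and of clade A was not tested.

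**Figure D2:**
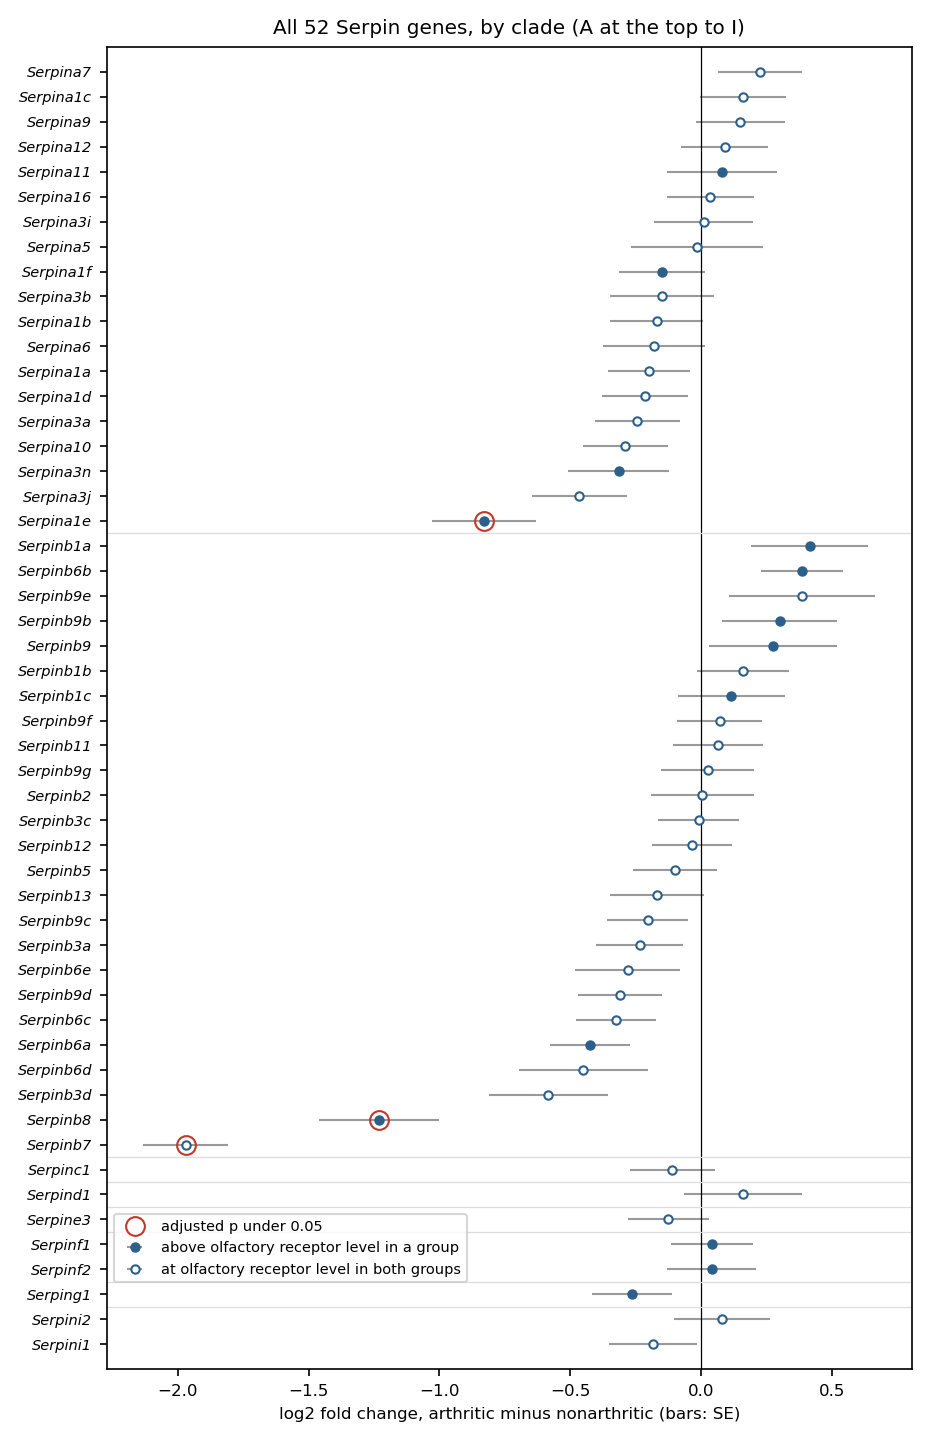
Log2 fold change, arthritic minus nonarthritic (horizontal axis), of each of the 52 Serpin genes (1 row each, by clade), with bars for the SE. Filled points are genes above the olfactory receptor level in at least 1 group, open points are at that level in both, and the 3 genes with an adjusted p under 0.05, at -0.83, -1.23 and -1.97, are ringed.

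Serpinb7, also called megsin and known in humans from the mesangial cells of the kidney and the upper layers of the skin, passed the test as lower, at a dim signal in both groups. It read 4.80 and 4.99 in arthritic pools 1 and 2, against 6.90 and 6.83 in nonarthritic pools 1 and 2. The groups were far apart and the pools of each group close together. The log2 fold change was -1.97 ± 0.16 (adjusted p = 0.000338, limma). Its arthritic mean lay at the 57.6th percentile of olfactory receptor genes and its nonarthritic mean at the 93.1st, so it counts among the 38 dim genes, neither mean was shown to be above background, and the size of its change is uncertain. With each pool left out in turn, the log2 fold change lay between -2.06 and -1.87.

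Serpinb8, an intracellular inhibitor whose human counterpart blocks the proprotein convertase furin, fell as well. Its signals were 8.49 and 7.83 in arthritic pools 1 and 2 and 9.47 and 9.31 in nonarthritic pools 1 and 2. Both arthritic pools lay below both nonarthritic pools, and the arthritic pools stood 0.66 apart. The log2 fold change was -1.23 ± 0.23, a 2.35-fold lower signal (adjusted p = 0.00996, limma). Unlike Serpinb7 it was well above the olfactory receptor level in both groups. It kept its call without arthritic pool 1 and lost it without arthritic pool 2, nonarthritic pool 1 or nonarthritic pool 2, where the adjusted p was 0.116, 0.114 and 0.146.

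Both genes lie in the clade B cluster of chromosome 1, with Serpinb2 between them. On GRCm38.p6 Serpinb7 spans chr1:107422689-107452689 and Serpinb8 spans chr1:107589926-107608978. Upstream sequence of the genes is shown because both lie in this cluster and both were called as lower. The runs are the reference bases just before the first annotated base of each gene on the plus strand (chr1:107422439-107422688 and chr1:107589756-107589925), from RefSeq, and capitals mark matches to TGANTCA, the AP-1 motif, which reads the same on both strands.
Serpinb7: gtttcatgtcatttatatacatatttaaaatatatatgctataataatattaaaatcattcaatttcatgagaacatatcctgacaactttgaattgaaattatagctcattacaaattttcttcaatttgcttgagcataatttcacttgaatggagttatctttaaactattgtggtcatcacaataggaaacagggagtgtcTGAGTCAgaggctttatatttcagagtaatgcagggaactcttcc
Serpinb8: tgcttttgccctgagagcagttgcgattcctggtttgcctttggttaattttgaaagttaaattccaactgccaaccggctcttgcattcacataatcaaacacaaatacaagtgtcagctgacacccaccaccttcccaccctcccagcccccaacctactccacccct
Serpinb8, around the motif: tgtgggaagtgTGAGTCAcagagtgttca

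The Serpinb7 match starts 45 bases before the annotated start. For Serpinb8 the upstream run holds no match. The third line gives the 29 bases at chr1:107589972-107590000, inside the annotated gene. There a match starts 23 bases before the transcript start used in the promoter table. Another match in the same window starts at base 14 from that transcript start and is not printed. Promoter windows of 300 bases, which run from 250 before to 50 after the start, were available for 46 of the 52 members. With the first listed window of each gene, 10 of these 46 genes held the motif (21.7%), against 7.93% of all 27025 genes. Another 2 motifs were searched on both strands: TATAAA was in 23.9% of the members against 14.2% of all genes, and TTCNNNGAA, the STAT motif, in 13% against 8.47%, so all 3 were more frequent among the members, which include close copies of one another. The other members with the AP-1 motif were 4 copies of the alpha-1-antitrypsin group, Serpina1a to Serpina1d, which are close copies, and Serpinb2, Serpinb5, Serpinb11 and Serpinb12, none of which was called. The motifs were chosen after the sequences were read, and a match is only a string of letters.

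The other 8 clade B genes of the chromosome 1 cluster did not pass the test. Serpinb2, plasminogen activator inhibitor 2, an inducible gene of macrophages and epithelia, read 5.09 and 5.49 in arthritic pools and 5.44 and 5.13 in nonarthritic pools, a difference of 0.005 ± 0.20 (adjusted p = 0.988, limma). Its signal stayed at the olfactory receptor level in all 4 pools. A probe set that lists Serpinb2 together with Serpinb10, and so was not assigned to either, read 6.59 and 6.10 in arthritic and 7.07 and 6.98 in nonarthritic pools, and its log2 fold change of -0.68 did not pass (adjusted p = 0.16, limma over all probe sets). Serpinb3d, of a subgroup with close copies, read 4.41 and 4.54 in arthritic against 4.73 and 5.39 in nonarthritic pools (adjusted p = 0.13, limma). Serpinb5 (maspin), Serpinb11, Serpinb12, Serpinb13, Serpinb3a and Serpinb3c, which are best known from skin and other epithelia, had log2 fold changes between -0.24 and 0.07, all at the olfactory receptor level.

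Of 13 measured keratinocyte markers, 1 fell and 0 rose, and at an unadjusted p under 0.05 the counts were 2 lower and 0 higher. The summed linear signal of the 13 was 2498 and 2428 in arthritic pools and 3367 and 3413 in nonarthritic pools. Bright genes weigh most in such a sum. The median log2 fold change of the list was -0.11, and 5 of the 13 values were positive. The gene that fell was Krtdap, which keratinocytes make as they differentiate, at 6.68 and 7.01 in arthritic and 9.64 and 9.66 in nonarthritic pools (log2 fold change -2.81 ± 0.17, adjusted p = 0.000136, limma). Its difference lay in the same direction as that of Serpinb7. The keratins Krt14 and Krt10, which define basal and upper epidermal cells, were at 0.38 ± 0.17 and 0.05 ± 0.15, and neither passed. Perp, a desmosome gene (-0.67 ± 0.23), Sbsn, a product of differentiated keratinocytes (-0.46 ± 0.21), and Trp63, a factor of basal epidermis (-0.36 ± 0.17), had negative values and did not pass either. Krt15 (0.30 ± 0.19), Dsg3 (0.105 ± 0.16) and Sfn (0.05 ± 0.17) had positive values and did not pass. Krt1 read 7.07 and 7.26 in arthritic and 7.16 and 7.17 in nonarthritic pools. The part of keratinocytes in the fall of Serpinb7 was not tested. In pooled tissue, fewer cells of a type and less RNA per cell cannot be told apart.

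**Figure D3:**
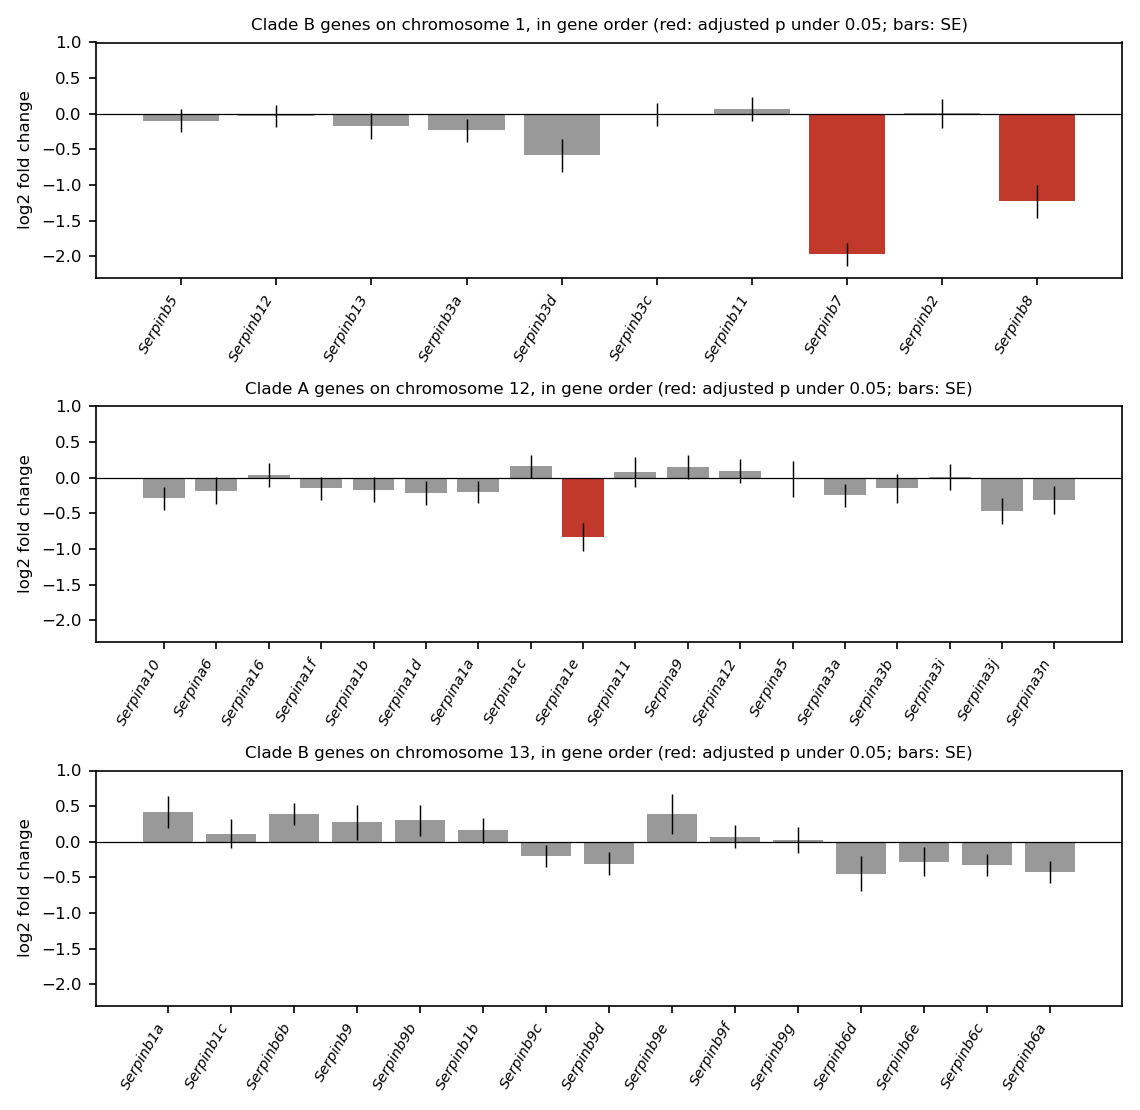
Log2 fold change, arthritic minus nonarthritic (vertical axis), with SE bars, of Serpin genes in their order along 3 gene clusters: 10 clade B genes on chromosome 1, 18 clade A genes on chromosome 12 and 15 clade B genes on chromosome 13. Red bars passed the test: Serpinb7 and Serpinb8 on either side of Serpinb2, and Serpina1e, while no gene of the chromosome 13 cluster did.

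The larger clade B cluster, 15 genes on chromosome 13 that include the inhibitors of neutrophil and granule proteases, had 0 called genes by limma, with 1 higher and 1 lower at an unadjusted p under 0.05. Serpinb1a, which blocks the neutrophil proteases elastase, cathepsin G and proteinase 3, read 8.97 and 8.40 in arthritic against 8.43 and 8.11 in nonarthritic pools. The groups overlapped, and the log2 fold change was 0.41 ± 0.22 (95% interval -0.10 to 0.93, adjusted p = 0.27, limma). Serpinb6b, a mouse paralog in the Serpinb6 group, read 8.24 and 8.15 in arthritic and 7.85 and 7.77 in nonarthritic pools. Its pools did not overlap between groups, and the difference of 0.38 ± 0.16 did not pass (adjusted p = 0.144, limma).

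Serpinb6a, an inhibitor of cathepsin G, pointed the other way, at 8.71 and 8.75 in arthritic and 9.18 and 9.13 in nonarthritic pools. The difference of -0.42 ± 0.15 was larger than the spread between pools but did not pass after adjustment (adjusted p = 0.107, limma). A probe set shared with another symbol, 1110046J04Rik, had the opposite sign, 0.29 (adjusted p = 0.443, limma over all probe sets). Serpinb9, which protects cells from granzyme B, read 10.44 and 9.71 in arthritic and 9.91 and 9.69 in nonarthritic pools. Arthritic pool 1 alone stood high, the pools of that group were 0.73 apart, and the interval of the difference ran from -0.29 to 0.84 (adjusted p = 0.524, limma). Serpinb9b has a pair of probe sets. The one used gave 0.30 ± 0.22, and the other, with a lower signal, gave equal group means of 5.40. By position, the first 6 genes of the cluster, Serpinb1a to Serpinb1b, all had positive log2 fold changes and the last 4, Serpinb6d to Serpinb6a, all negative ones, with none of the 10 called. Members of the Serpinb1, Serpinb6 and Serpinb9 groups resemble each other closely, so a probe may read a neighbour's transcript and each value carries that doubt.

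Among 19 clade A genes 1 fell and 0 rose, with a median log2 fold change of -0.15. The gene that fell was Serpina1e, 1 of the mouse copies of alpha-1-antitrypsin, the plasma inhibitor of neutrophil elastase. It read 6.44 and 6.94 in arthritic against 7.54 and 7.50 in nonarthritic pools. The nonarthritic pools agreed closely, and both arthritic pools were lower, by unequal amounts. The log2 fold change was -0.83 ± 0.20, a signal lower by 1.78-fold (adjusted p = 0.0267, limma). Its nonarthritic mean of 7.52 was above the olfactory receptor level and its arthritic mean of 6.69 was not, so the fold is a lower bound if the arthritic signal is background. The call was lost with any 1 pool left out: the adjusted p was 0.168 and 0.0853 without arthritic pools 1 and 2, and 0.15 and 0.21 without nonarthritic pools 1 and 2.

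The other copies, Serpina1a, Serpina1b, Serpina1c and Serpina1d, stayed at the olfactory receptor level in both groups, with log2 fold changes from -0.22 to 0.16. Their upstream sequence shows how close a pair of these copies is there. The lines give 193 aligned bases upstream of each gene on the minus strand of chromosome 12, with the bases that differ in capitals (Serpina1e chr12:103956955-103957147, Serpina1a chr12:103863620-103863812, GRCm38.p6, from RefSeq). They were aligned without gaps at the offset with the most matches. The Serpina1a run therefore ends at its annotated start, while the Serpina1e run ends further upstream of its own.
Serpina1e: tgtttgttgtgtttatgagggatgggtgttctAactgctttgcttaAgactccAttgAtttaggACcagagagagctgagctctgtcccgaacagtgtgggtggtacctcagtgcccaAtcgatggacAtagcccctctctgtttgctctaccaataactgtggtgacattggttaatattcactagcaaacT
Serpina1a: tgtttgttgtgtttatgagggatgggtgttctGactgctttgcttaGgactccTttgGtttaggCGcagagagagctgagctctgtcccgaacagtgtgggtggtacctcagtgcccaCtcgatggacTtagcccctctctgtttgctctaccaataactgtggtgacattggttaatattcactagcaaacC

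The runs differed at 9 of 193 bases (95.3% identical). The transcripts and the probes themselves were not compared. Of 12 markers of hepatocytes, the main source of plasma serpins, 2 fell and 0 rose (0 at an unadjusted p under 0.05). These were albumin, Alb (-1.82 ± 0.17), and Ahsg, which encodes fetuin-A (-0.83 ± 0.18). The summed signal of the 12, in which bright genes weigh most, was 1235 and 1345 in arthritic and 1528 and 1611 in nonarthritic pools. Their median log2 fold change was -0.04, and 5 of the 12 values were positive. The fibrinogen genes Fga, Fgb and Fgg lay at the olfactory receptor level in both groups. The part of plasma or liver transcripts in the fall of Serpina1e was not tested.

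Serpina3n, the main mouse counterpart of the acute phase protein alpha-1-antichymotrypsin and an inhibitor of granzyme B and cathepsin G, had a strong signal in every pool. It read 12.62 and 13.07 in arthritic and 13.09 and 13.23 in nonarthritic pools. The arthritic pools were slightly lower, and arthritic pool 2 lay just below nonarthritic pool 1. The difference of -0.32 ± 0.19 did not pass (95% interval -0.76 to 0.13, adjusted p = 0.335, limma), and the interval leaves out any rise above 0.13 on the log2 scale. Serpina3j had the largest difference of the clade after Serpina1e, -0.46 ± 0.18, at the olfactory receptor level.

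The remaining 12 clade A genes include plasma transport proteins and clotting inhibitors. Serpina1f and Serpina11 were above the olfactory receptor level in at least 1 group, at -0.15 ± 0.17 and 0.08 ± 0.21. Serpina6 (corticosteroid-binding globulin), Serpina7 (thyroxine-binding globulin), Serpina5 (protein C inhibitor), Serpina10 (the protein Z-dependent inhibitor of factor X) and Serpina12 (vaspin, a product of fat) had log2 fold changes between -0.29 and 0.23 at that level. Adipocyte markers fell in 9 of 9 cases in the same arrays. Serpina9, Serpina16, Serpina3a, Serpina3b and Serpina3i, for which no role is given here, also stayed there, between -0.25 and 0.15.

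**Figure D4:**
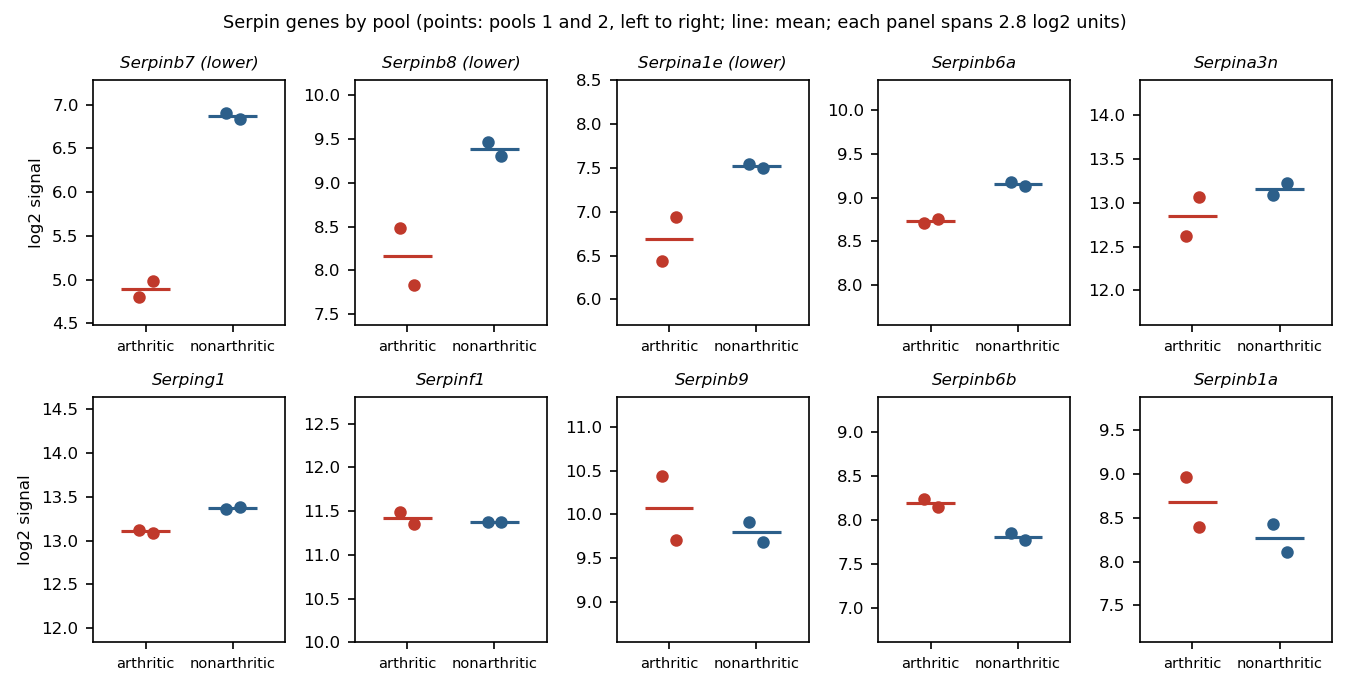
Log2 signal (vertical axis, own position but the same span of 2.8 units in each panel) of 10 Serpin genes in arthritic pools (red, left) and nonarthritic pools (blue, right), with the mean as a line. Serpinb7, Serpinb8 and Serpina1e passed the test and are lower in both arthritic pools, while the other 7 differ by 0.04 to 0.42.

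None of the members outside clades A and B passed the test. Serping1, the C1 inhibitor, which restrains the first complement proteases and plasma kallikrein, read 13.12 and 13.09 in arthritic and 13.36 and 13.38 in nonarthritic pools. The pools of a group nearly coincided and the groups did not overlap, yet the difference of -0.27 ± 0.15 did not pass (95% interval -0.62 to 0.09, adjusted p = 0.303, limma). Serpinf1, pigment epithelium-derived factor, a serpin without protease inhibition that restrains blood vessel growth and is needed for bone mineralisation, read 11.49 and 11.35 in arthritic and 11.38 and 11.38 in nonarthritic pools. The difference was 0.04 ± 0.16, with an interval of -0.32 to 0.40. Serpinf2, alpha-2-antiplasmin, the main inhibitor of plasmin, read 7.41 and 7.43 in arthritic and 7.23 and 7.53 in nonarthritic pools, also a difference of 0.04.

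The other 5 genes, Serpinc1 (antithrombin), Serpind1 (heparin cofactor II), Serpine3, Serpini1 (neuroserpin, which inhibits tissue plasminogen activator) and Serpini2, stayed at the olfactory receptor level in both groups. Their log2 fold changes ran from -0.19 to 0.16, and the lowest adjusted p among them was 0.535. Over the whole family the ranges of the arthritic and nonarthritic pools did not overlap for 19 of 52 genes, against 56.4% of all genes.

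Proteases, cofactors, receptors and other inhibitors that work with or beside serpins were followed in 10 lists. Of their 119 genes 18 rose and 10 fell, where 8.72% and 6.62% of all genes, dim ones included, were called. Without arthritic pools 1 and 2 the counts were 3 higher and 6 lower, and 3 higher and 1 lower. Without nonarthritic pools 1 and 2 they were 4 higher and 5 lower, and 2 higher and 0 lower (1 array alone then stands for a group and is assumed to vary like the other). In plasminogen activation, Plau (urokinase) rose by 0.87 ± 0.18 and its receptor Plaur by 1.01 ± 0.20, 2 of 10 genes, and 0 fell, also at an unadjusted p under 0.05. Both calls were lost with any 1 pool left out. Plau read 10.69 and 11.05 in arthritic and 9.95 and 10.05 in nonarthritic pools. The tissue activator Plat was at 0.33 ± 0.16 and plasminogen, Plg, at 0.08 ± 0.18, and neither passed. Plg stayed at the olfactory receptor level in both groups.

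The largest differences among target proteases were those of 2 granzymes, Gzmc and Gzmb. The other 8 of the 10 genes in the list of granzymes and perforin were not called, and the list median was 0.06. At an unadjusted p under 0.05, 3 genes of the list were higher, Gzmd being the one not called. Gzmd was at 1.9 ± 0.56 (adjusted p = 0.0568, limma), at the olfactory receptor level in both groups, with arthritic pools 2.13 apart. Without nonarthritic pool 1 or nonarthritic pool 2, Gzmc and Gzmb did not both keep their calls. Gzmb, the granzyme that Serpinb9 and Serpina3n inhibit, rose, with nonarthritic pools at the olfactory receptor level, so that its fold change is a lower bound if those are background. It read 8.42 and 8.08 in arthritic and 6.04 and 6.13 in nonarthritic pools (log2 fold change 2.17 ± 0.18, adjusted p = 0.000333, limma). Gzmc rose by 2.61 ± 0.38, a lower bound in the same way, with arthritic pools 1.39 apart, and 0 of the 10 genes of the list fell, also at an unadjusted p under 0.05. Beside these rises Serpinb9 stood at 0.28 ± 0.24 and Serpina3n at -0.32 ± 0.19. Of 11 T and NK cell markers 2 rose, Gzmb itself among them, 0 fell and 9 were not called. The part of these cells in the granzyme rises was not tested.

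Of the 4 neutrophil serine proteases, the targets of Serpina1 copies and Serpinb1a, 0 rose and 0 fell by limma, and 0 had an unadjusted p under 0.05 in either direction. Elane was at -0.10 ± 0.18 and Ctsg at -0.30 ± 0.18, both at the olfactory receptor level in both groups and so not shown to be above background. Prtn3, above that level in both groups, was at 0.24 ± 0.16. Neutrophil markers in the same arrays rose in 10 of 11 cases, with summed signals of 14372 and 16495 in arthritic and 2794 and 1990 in nonarthritic pools, and their part in the values of Serpinb1a was not tested. Of 11 mast cell protease genes, Cpa3 fell by 1.01 on the log2 scale and 0 rose, and at an unadjusted p under 0.05 there were 4 lower and 0 higher. Of 10 mast cell markers 4 fell, Cpa3 among them, and 1 rose, with summed signals of 5361 and 5306 in arthritic and 6801 and 6550 in nonarthritic pools, and their part in the fall of Cpa3 was not tested. Cpa3 lost its call with any 1 pool left out. Of 5 complement proteases, Masp1, a lectin pathway protease that C1 inhibitor blocks, rose by 1.37 ± 0.17, while C1s1 was at 0.81 ± 0.26 and C1ra at 0.04 ± 0.15, and 0 fell, also at an unadjusted p under 0.05. The rises in that list came to 1 without nonarthritic pool 1 and to 0 without arthritic pool 1, arthritic pool 2 or nonarthritic pool 2.

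Coagulation and contact genes had 3 of 18 higher and 4 lower. With any 1 pool left out the rises came to 0, and the falls to 1 without arthritic pool 1 or nonarthritic pool 1 and to 0 without the other pools. F10 (1.04 ± 0.17), Kng1 (0.94 ± 0.16), which encodes a kininogen, and F5 (0.92 ± 0.17) passed the test as higher, Kng1 at the olfactory receptor level in both groups, where the size of a change is uncertain. Thbd, the thrombin receptor that turns on protein C (-1.28 ± 0.16), tissue factor, F3 (-0.88 ± 0.18), F13a1 (-0.74 ± 0.18) and the thrombin receptor family gene F2rl2 (-0.70 ± 0.16) fell. F2, prothrombin, the target of antithrombin, was at 0.17 ± 0.16 at the olfactory receptor level. Cysteine cathepsins and caspases had 3 of 11 higher, Casp4 (0.81 ± 0.16), Ctsk (0.67 ± 0.18) and Ctsz (0.64 ± 0.17), and 0 lower, also at an unadjusted p under 0.05. Of 18 kallikreins and membrane serine proteases, Klk10 fell (-0.81 ± 0.16) and Klk1 passed as higher (0.81 ± 0.21) at the olfactory receptor level in both groups, with the same doubt. These cathepsin, caspase and kallikrein calls were all lost with any 1 pool left out.

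Among 9 receptors and carriers that bind serpins, Pnpla2, a lipase of fat that is also described as a receptor for the Serpinf1 protein, fell by 1.73 on the log2 scale, and Vldlr, an endocytic receptor for serpin-protease complexes, by 1.46. Rpsa, a ribosomal protein and laminin receptor, rose by 0.85 ± 0.17. Adipocyte markers, with summed signals of 6161 and 4376 in arthritic and 26053 and 24912 in nonarthritic pools, fell beside Pnpla2, and their part in it was not tested. Serine protease inhibitors of other families had 5 of 25 higher and 2 lower. Slpi, a small inhibitor of neutrophil elastase, read 12.16 and 12.11 in arthritic and 9.44 and 8.20 in nonarthritic pools (3.31 ± 0.35, adjusted p = 0.000805, limma), with the nonarthritic pools 1.24 apart. Tfpi2 (1.64 ± 0.18), A2m (1.08 ± 0.16), Spint1 (0.76 ± 0.16) and Pebp1 (0.73 ± 0.18) rose, while Itih5 (-2.31 ± 0.24) and Itih2 (-1.73 ± 0.19), whose proteins bind hyaluronan, fell. All rises among these receptors and inhibitors, Slpi included, lost their calls without arthritic pool 2. All falls among them lost their calls without nonarthritic pool 2.

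**Figure D5:**
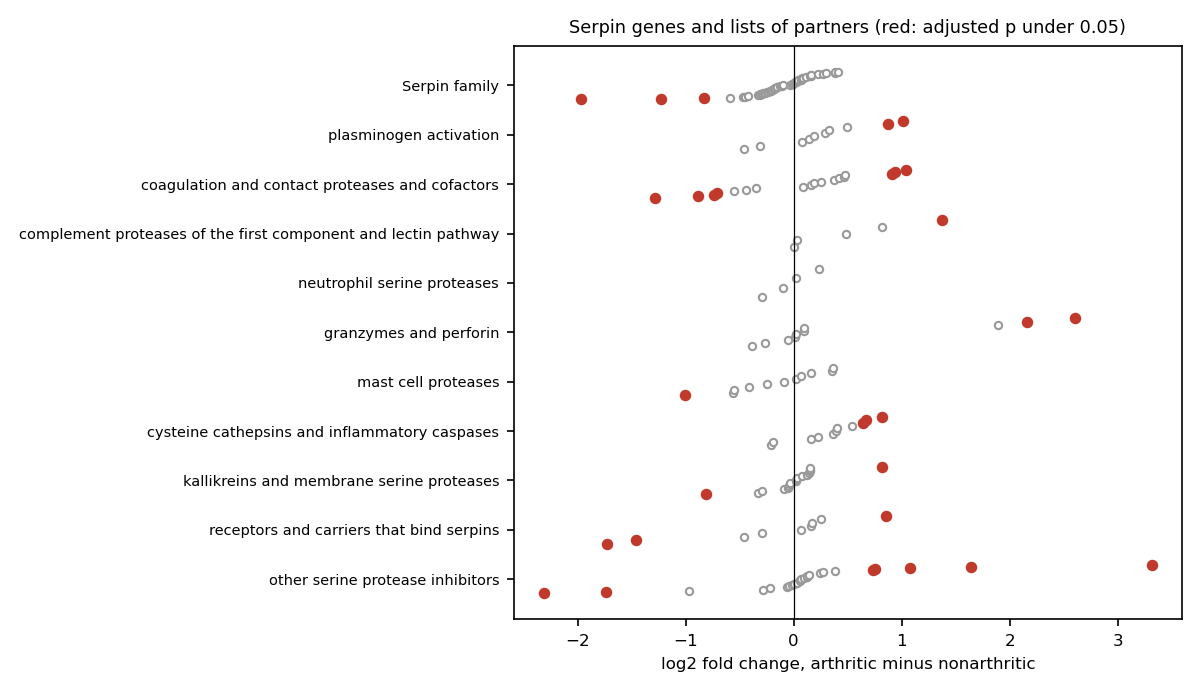
Log2 fold change, arthritic minus nonarthritic (horizontal axis), of each gene in the Serpin family (top row) and in 10 lists of proteases, cofactors, receptors and other inhibitors (1 row each). Red points have an adjusted p under 0.05: the Serpin row has 3, all below 0, while Slpi at 3.31 is the furthest right and Itih5 at -2.31 the furthest left.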

How the data were processed

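The deposited values are log2 signals of Affymetrix MoGene 2.0 ST arrays, 1 value per probe set and array, deposited by the authors, whose processing notes name RMA, Expression Console and Power Tools (Affymetrix). No version or setting is given in the sources used here. From the values (2.89 to 14.27) the scale was taken as log2. Of 41345 probe sets, 23521 had 1 gene symbol in the platform table, 1814 several and 16010 none. Probe sets with 1 symbol gave 22180 genes (the probe set with the highest mean). Another 2 probe sets list a Serpin symbol beside another one and were left out. Gene positions come from RefSeq, GRCm38.p6, matched by gene number for all 52 members.

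Arthritic and nonarthritic pools were compared with limma 3.58.1 in R 4.3.3 (lmFit, eBayes, two-sided, 2 residual and 5.98 prior degrees of freedom, no block), adjusted by Benjamini-Hochberg over all genes. Intervals are 95%. The number of arrays limits the precision, and p-values measure the spread between pools, not mice. The members and lists were chosen with earlier results of these data known. Members were named with every pool's value where they were called or where their mean exceeded the median of all genes (7.70). Of each list, up to 6 called genes with the largest change and the main targets of a serpin were named. Gzmd, not called, was named as well for the size of its difference. Alternatives were a replicate block, median-centred arrays, quantile normalization again, the mean of a gene's probe sets, a filter on dim genes, an intensity trend and leaving out each pool.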

Additional observations from a re-analysis of the deposited data

How the results depend on the processing

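With 0 rising Serpin genes by limma under each alternative named here, the family's count of falls was 3 with median-centred arrays, quantile normalization again, averaged probe sets and an intensity trend, and 2 of 14 tested with dim genes left out, where Serpinb7 was not tested. Leaving out each pool gave 1 to 2 falling Serpin genes, 2 to 4 rising and 0 to 6 falling partner genes, and 47 to 637 rising and 105 to 584 falling genes overall. The labels do not say whether pools of the same number were handled together (correlation of deviations 0.18 over 2 pairs). With pool number as a replicate block, 2 Serpin genes fell, Serpina1e had an adjusted p of 0.0673, and 1216 genes rose. Under the block, falls among coagulation genes came to 1, against 4, rises among cathepsins and caspases to 1, against 3, rises in plasminogen activation to 1, against 2, and Klk1 was not called. Median-centred arrays moved the median of all genes to 0.1 and the share of calls that were rises to 67.1%, against 56.8%. The median log2 fold change of clade A ranged from -0.26 to 0.03 with a pool left out, and that of clade B from -0.19 to 0.00. The clade B median was -0.04 over all 25 genes and 0.27 over the 7 genes left by the dim filter. That filter removes 18 genes, Serpinb7 among them, and keeps Serpinb9b and Serpinb1c through their arthritic signal alone. It is therefore not independent of the difference, and no conclusion is drawn from the change in the median. No detection calls were used, so a dim value cannot be told from background.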
